A study of Mus musculus with 2 samples.

Results

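Neuromuscular junction myonuclei are the nuclei of a muscle fibre that lie under the nerve ending and transcribe the genes of the synapse. In single-nucleus RNA sequencing of mouse quadriceps they were picked by their own transcripts: a nucleus with at least 200 detected genes was a member if it held at least 3 unique molecular identifiers (UMIs, 1 per captured RNA molecule) over Chrne, Colq, Musk, Etv5, Ache, Chrna1 and Ufsp1, from at least 2 of these genes. The rule found 138 members among 18040 nuclei. The data were 2 libraries from C57BL/6N mice aged 3 months, 1 from WT mice and 1 from mice without PTRF, the older name of Cavin1, a coat protein of caveolae. The WT library gave 44 members and the PTRF knockout library 94. The sources used here do not give the number or sex of the mice behind a library, or the form of the knockout allele. With 1 library per genotype no difference has a replicate check, no test was made, and every interval is an exact 95% interval for counting error only.

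At the neuromuscular junction the motor axon releases acetylcholine onto receptors packed into the crests of the fibre membrane. Nerve-derived agrin binds Lrp4 and activates the receptor kinase MuSK, which gathers the receptors through Dok7 and rapsyn, while a few nuclei beneath the contact keep transcribing receptor subunits, acetylcholinesterase and its collagen anchor. ETS-family factors such as Etv5 and GABP act on many of these genes, in part through a short promoter element called the N-box.

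The promoters of Chrne, the adult receptor subunit for which the N-box is best known, and of Ano4, the gene that led the members' profile below, are shown as RefSeq gives them on the mouse build GRCm38.p6, 250 bases before to 50 after the start, 5′ to 3′ on the gene's own strand. The Ano4 start shown lies inside the span of the gene given below, not at its 5′ end. Whether that start is used in these nuclei was not tested. Capitals mark the N-box core CCGGAA in Chrne, 76 bases before the start, and in Ano4 the 1 match to the E-box CANNTG, the class of site bound by myogenic factors.
Chrne (chr11:70619145-70619444, minus strand): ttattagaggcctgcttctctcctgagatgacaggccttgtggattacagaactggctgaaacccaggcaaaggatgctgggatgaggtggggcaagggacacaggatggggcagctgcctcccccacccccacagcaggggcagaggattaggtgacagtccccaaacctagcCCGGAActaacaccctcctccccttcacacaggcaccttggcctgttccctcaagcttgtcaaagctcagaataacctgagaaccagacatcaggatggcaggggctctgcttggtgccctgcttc
Ano4 (chr10:89257741-89258040, minus strand): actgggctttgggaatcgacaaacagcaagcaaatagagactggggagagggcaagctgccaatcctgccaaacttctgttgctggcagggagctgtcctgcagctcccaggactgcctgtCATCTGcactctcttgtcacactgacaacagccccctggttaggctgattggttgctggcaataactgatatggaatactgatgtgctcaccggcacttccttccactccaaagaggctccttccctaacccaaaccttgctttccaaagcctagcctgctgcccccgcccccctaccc
CCGGAA was searched on both strands and stood in 14.9% of 32851 promoters of this length, CANNTG in 72.3%. Chrne also holds 1 match to CANNTG, left in lower case. In both promoters no match to one motif overlapped a match to the other. Of the 7 rule genes, 6 were in the table with 7 promoters, and CCGGAA stood in 1 of these, that of Chrne. It stood in 0 of 13 promoters of 9 of the 12 leading genes named below.

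The nuclei bore the marks of muscle fibre nuclei. All 44 WT members and 90 of 94 knockout members had at least 10 UMIs over 12 pan-myonuclear genes such as Ttn and Neb with few UMIs of other cell types. Schwann cell markers, whose source is the glia that cap the junction, gave 0 UMIs in WT and 1 in the knockout, with Sox10 at 0 in both. Tenocyte and lymphocyte markers were at 0 in both libraries, and Chat and Isl1 of the motor neuron were at 0. Fibro-adipogenic markers gave 2 and 7 UMIs, satellite cell markers 1 and 2, macrophage markers 8 and 11, and lymphatic endothelial markers 1 and 8. Mural markers gave 25 and 109 UMIs, of which Abcc9, a potassium channel subunit gene also active in muscle, gave 24 and 106. Endothelial markers gave 4 UMIs in WT and 20 in the knockout, 16 of them Pecam1 in 6 nuclei. Adipocyte markers gave 4 UMIs in WT, all Plin4, and 62 in the knockout, where 4 nuclei held at least 2 and Pparg had 21 UMIs in 4 nuclei. The part of these UMIs in the results below was not tested. The nuclei met the label by markers the rule did not use only in part, as the following account shows.

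The libraries differed in ways that touch every comparison of genotypes. WT had 10280 barcodes and 9746980 UMIs, with a median of 703 per nucleus, and the knockout 7766 barcodes and 16052317 UMIs, with a median of 1562. Cavin1 had 75 UMIs in WT and 2 in the knockout, and 1 and 0 in the members. Y-linked UMIs without Xist were found in 2721 WT and 3103 knockout nuclei, and Xist without Y-linked UMIs in 2 and 1527. Among members, 18 WT and 60 knockout nuclei were Y-marked and 0 and 7 carried Xist alone. The libraries shared 24 barcodes, 1 of them a WT member.

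Members were rare, and their share was higher in the deeper library. They made up 0.428% of WT nuclei (0.311 to 0.575) and 1.21% of knockout nuclei (0.979 to 1.48). Member nuclei had a median of 1266.5 UMIs in WT and 3154 in the knockout. When every nucleus was thinned to 500 UMIs, the rule found 9 of 8219 WT nuclei, or 0.110% (0.0501 to 0.208), and 15 of 7766 knockout nuclei, or 0.193% (0.108 to 0.318), and these intervals overlap. Thinning left out 2055 WT nuclei and 0 knockout nuclei as too shallow.

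The 7 rule genes chose the nuclei, so their levels are a description. Chrne encodes the subunit that marks the adult receptor. It had 27 UMIs in 19 WT members and 36 in 29 knockout members, which was 39.1% and 48.6% of all Chrne UMIs of each library. The gene (ENSMUSG00000014609) spans chr11:70614883-70619216 on the minus strand of GRCm38, and 4930544D05Rik overlaps it on the other strand. Chrna1, the receptor's acetylcholine-binding subunit, was scarce, with 3 UMIs in WT and 4 in the knockout. Colq, the collagen tail that ties acetylcholinesterase to the basal lamina, had 20 and 46 UMIs in the members, 37.7% and 67.6% of all its UMIs. Ache, the esterase that ends each signal, had 11 and 58, only 21.2% and 33.3% of all. Ufsp1, a UFM1-specific protease gene that starts 162 bases after the end of Ache on the same strand of chromosome 5, had 27 and 36 UMIs, 65.9% and 46.8% of all. Etv5, the ETS factor, had 38 and 66, or 55.9% and 53.2%. Against other myonuclei these genes stood at 138-fold for Etv5, 93.3-fold for Colq, 53.9-fold for Ufsp1, 52.8-fold for Chrne and 22.0-fold for Ache.

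Musk differed from the other rule genes in that it was also read in many other myonuclei, and members stood at 4.17-fold (3.74 to 4.63). Its 85 WT and 255 knockout UMIs in members were 6.36% and 8.12% of all Musk UMIs. A Musk UMI was present in 9.97% of 9764 other WT myonuclei and in 28.4% of 5781 other knockout myonuclei, with median depths of 709 and 1773 UMIs. Among fibro-adipogenic nuclei, non-members with at least 3 UMIs from at least 2 marker genes of that cell type, which should lack Musk, the shares were 7.41% of 27 WT nuclei and 7.73% of 207 knockout nuclei, at median depths of 1146 and 1194 UMIs. The WT share rests on 2 nuclei. Etv5 stood at 7.41% and 5.31% in those nuclei and Colq at 0 and 0.483%, whereas Chrne, Ache, Chrna1 and Ufsp1 were at 0 in both libraries, which allows shares of up to 11.1% in WT and 1.45% in the knockout. Over all nuclei of the knockout library Musk stood at 1.43 times its WT level (1.34 to 1.52), Ache at 2.02 times (1.48 to 2.83) and Chrne at 0.651 times (0.463 to 0.917).

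By whether Musk was needed, the members fell into a pair of subsets. In 22 WT and 28 knockout nuclei the other 6 genes alone met the rule. The remaining 22 WT and 66 knockout nuclei needed Musk to be counted, and in the knockout these were the deeper ones, with a median of 3608.5 UMIs against 1879. In WT the medians were 1283 and 1266.5. The commonest pair in the knockout was Musk with Ache, in 23 nuclei, while in WT Chrne with Musk and Musk with Etv5 and Ufsp1 had 5 nuclei each. Only 2 of the rule genes were seen in 20 WT and 61 knockout members, 3 in 15 and 18, and 4 or more in 9 and 15. This split was made after the values were seen. Just inside the threshold, 16 WT and 33 knockout members had exactly 3 rule UMIs. Just outside it, 24 and 64 nuclei had 2 UMIs from 2 genes, and 42 and 278 had at least 3 UMIs from a single gene.

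Transcripts of 10 other junction-enriched genes, which the rule did not use, showed how unlike the subsets were. The genes were Etv4, Gabpa, Gabpb1, Prkar1a, Vav3, Gramd1b, Pdzrn4, Hs6st2, Lrfn5 and Ano4. Their summed level, in CPM (UMIs scaled to the total of the group), was 10623 for WT (9529 to 11809) and 8722 for the knockout (8031 to 9456) in nuclei that met the rule without Musk. In members that needed Musk it was 2032 (1601 to 2543) and 661 (568 to 766). Other myonuclei stood at 219.9 and 158.9 CPM. The list was not silent elsewhere: knockout fibro-adipogenic nuclei stood at 681 CPM (597 to 775), about the level of knockout members that needed Musk, with 109 of their 233 list UMIs from Vav3, and the WT ones at 213 (91.8 to 419). Myotendinous junction nuclei, non-members with at least 3 UMIs from at least 2 marker genes of the fibre end, stood at 463 (274 to 732) and 185 (128 to 258). Non-members with at least 3 Musk UMIs and no other rule gene stood at 108 (57.5 to 185) and 179 (156 to 204), no higher than other myonuclei in WT. Knockout members with a single rule UMI outside Musk were near that level as well, at 237 (172 to 318), whereas the like WT members reached 2070 (1526 to 2744).

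**Figure D1:**
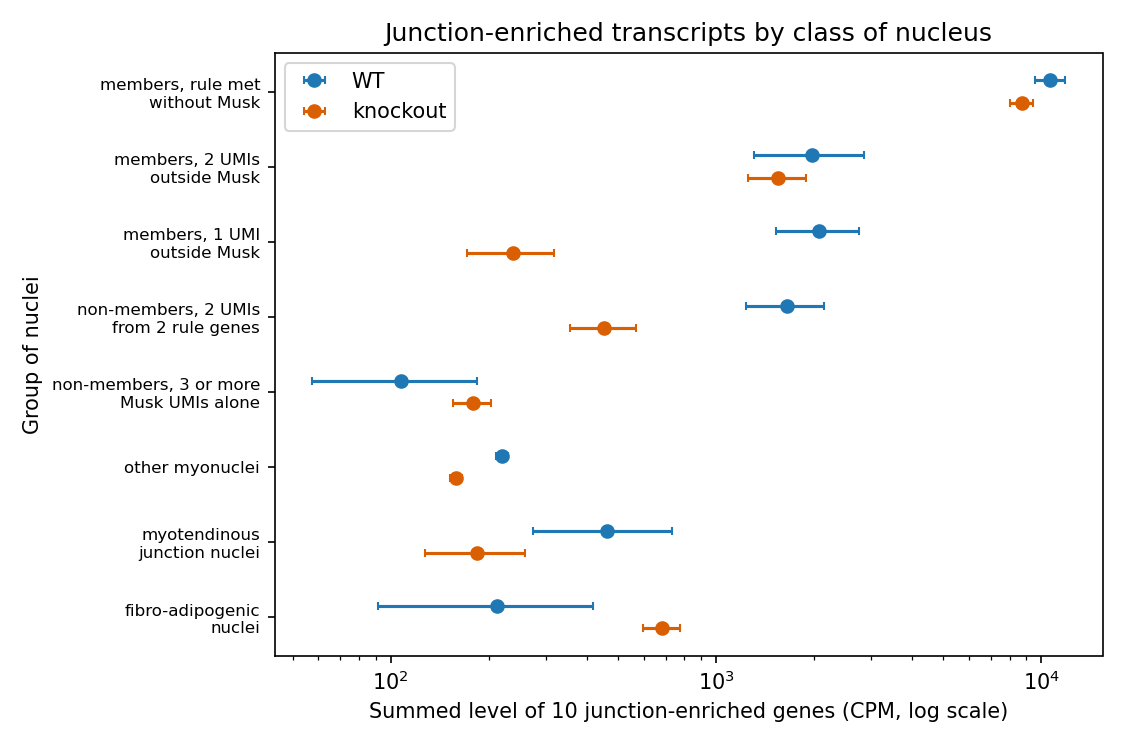
Summed CPM of the 10 junction-enriched genes (log axis) in 8 classes of nuclei, WT in blue and knockout in orange; points are pooled levels and bars exact 95% Poisson intervals. Members that met the rule without Musk stand at 10623 and 8722 CPM, far to the right of every other class, and nuclei with Musk alone stand among the other myonuclei.

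Nucleus by nucleus the 2 subsets overlapped. In the 22 WT members that met the rule without Musk, UMIs over the 10 genes ran from 0 to 38 with a median of 14.5, and in the 28 knockout ones from 0 to 97 with a median of 15. In members that needed Musk WT nuclei ranged from 0 to 22 and knockout nuclei from 0 to 23, with a median of 1 in both. Of the former, 1 of 22 WT and 2 of 28 knockout nuclei held 0 such UMIs, and over all members 11 WT and 34 knockout nuclei did. Outside the members, 4 WT and 25 knockout nuclei carried at least 8 UMIs of these genes, as did 20 WT and 25 knockout members. Of those 25 knockout non-members, 10 had 0 UMIs of any rule gene. By class, the 4 WT nuclei were other myonuclei, and of the 25 knockout nuclei 15 were other myonuclei, 4 were fibro-adipogenic and 6 were in none of the classes used here. Of the 4 WT nuclei 0 lacked a rule UMI, and of the 15 knockout other myonuclei 2 did. Such a count was thus also met in fibro-adipogenic nuclei. Whether the other myonuclei with such a count were junction nuclei that the rule missed was not tested.

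**Figure D2:**
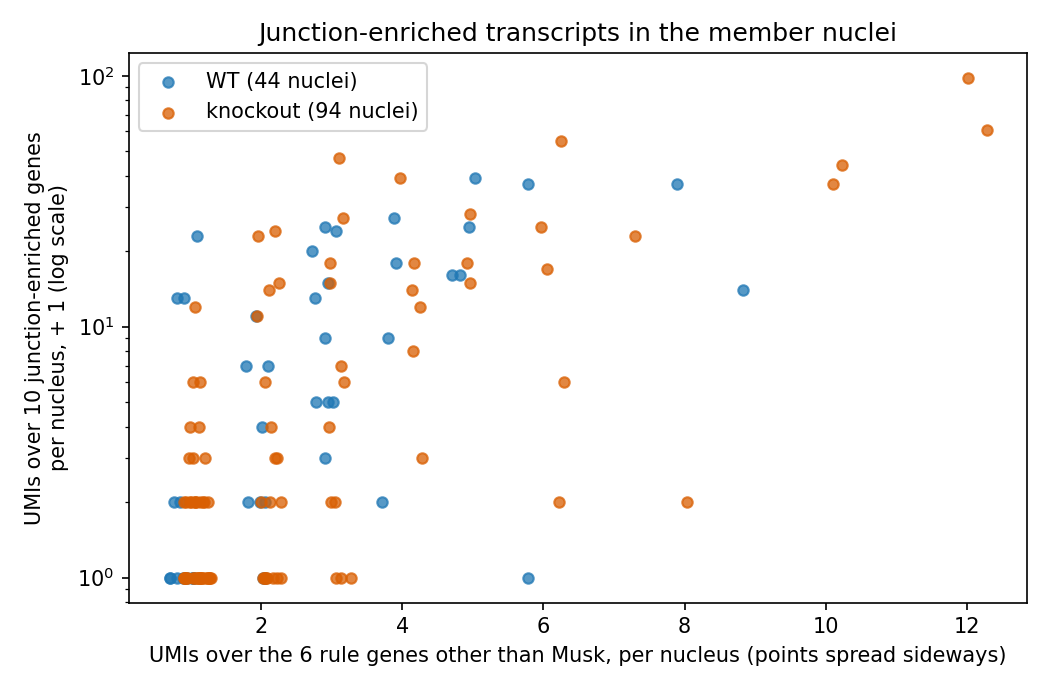
Each point is 1 member nucleus, with its UMIs over the 6 rule genes other than Musk on the horizontal axis (points spread sideways for clarity) and its UMIs over the 10 junction-enriched genes plus 1 on the vertical log axis. Nuclei with 1 rule UMI outside Musk mostly lie at the bottom, and the highest reach 38 UMIs in WT and 97 in the knockout.

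To place the members' profile, their UMIs were set against the number expected from other myonuclei of the same library, summed over both libraries. A gene was called when the interval of this ratio lay beyond 2-fold in either direction, at least 20 UMIs were observed or expected, and both libraries pointed the same way with 0.5 UMI added to each sum. The interval leaves out the counting error of the other myonuclei. A gene with fewer than 20 UMIs expected could enter only through the members' own UMIs, and so could not be called lower. The 12 leading genes named below entered in this way. Counts of higher and lower calls are therefore not comparable. Of 3117 genes, 65 were called higher (2.09%) and 2 lower (0.0642%), and 6 of the 65 were rule genes. For 2 of the 65, Cd44 and Emp1, WT members held 0 UMIs, so the WT direction came from the added 0.5 UMI alone, and 63 had UMIs in members of both libraries. The like count was 88 of 89 where the rule was met without Musk and 22 of 25 where Musk was needed. In the 50 nuclei that met the rule without Musk, 89 of 1026 genes were called higher (8.67%) and 16 lower (1.56%), and 51 of the 65 were among the 89. In members that needed Musk, 25 of 2531 were called higher (0.988%) and 1 lower (0.0395%).

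Ano4, of the anoctamin family of channels and lipid scramblases, was the leading gene. It had 134 UMIs in 23 WT members and 201 in 20 knockout members, 57 of the latter in 1 nucleus. Its level was 1923 CPM in WT members and 16.6 in other WT myonuclei, and 599.9 and 3.20 CPM in the knockout. Pooled, it stood at 149 times the expected level (134 to 166) and at 364 times (322 to 409) in nuclei that met the rule without Musk. Members were above other myonuclei in both libraries. The gene (ENSMUSG00000035189) spans chr10:88948994-89344762 on the minus strand, with no overlapping gene annotated.

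Among the other 11 leading genes, several have known roles at synapses. Phldb2, whose protein LL5-beta helps to organise receptor clusters, had 63 UMIs in WT members and 89 in knockout members and stood at 85.2-fold (72.2 to 99.8). Hs6st2, a sulfotransferase of heparan sulfate, the sugar chain of agrin, had 45 and 109 UMIs and stood at 60.7-fold (51.5 to 71.0). Pdzrn4, from a family of PDZ and RING finger proteins that includes a MuSK-binding member, had 45 and 85 and stood at 42.0-fold (35.1 to 49.9). Ncam1, the neural cell adhesion molecule that mature fibres keep at the junction, had 71 and 196 and stood at 26.6-fold (23.5 to 30.0). Ncam1 was also read in myotendinous junction nuclei, at 154 CPM in WT from 6 UMIs and 223 in the knockout from 41, beside 26.3 and 24.5 in other myonuclei and 348 and 217 in members that needed Musk. Phldb2, Hs6st2, Pdzrn4 and Ncam1 were above other myonuclei in both libraries. Phldb2 and Pdzrn4 were also read in fibro-adipogenic nuclei. Phldb2 stood there at 159 CPM in WT from 6 UMIs and 137 in the knockout from 47. In members that needed Musk it stood at 294 and 26.2. Pdzrn4 stood at 0 and 126 CPM in fibro-adipogenic nuclei, the latter from 43 UMIs, beside 267 and 22.4 in members that needed Musk.

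Extracellular matrix and sugar-modifying genes were a further share of these. Col4a3, a type IV collagen chain of the synaptic basal lamina, had 50 UMIs in WT members and 58 in knockout members and stood at 62.0-fold (50.8 to 74.8). Col19a1, a minor collagen of basement membrane zones, had 57 and 141 and stood at 26.7-fold (23.1 to 30.7). B4galnt3, which adds N-acetylgalactosamine to sugar chains, had 14 and 24 and stood at 67.5-fold (47.8 to 92.6). Levels of the 3 genes were higher than in other myonuclei in both libraries. Col4a3 was also read in fibro-adipogenic nuclei, at 106 CPM in WT from 4 UMIs and 52.6 in the knockout from 18. In members that needed Musk it stood at 294 and 52.3.

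The last 4 were signalling and membrane-skeleton genes. Nkd2, a Wnt pathway antagonist, had only 9 and 13 UMIs in members and 11 and 2 in other myonuclei. With the counting error of both groups its log2 ratio to other myonuclei was 6.79 for WT (5.33 to 8.18) and 7.72 for the knockout (5.85 to 11.18). Rps6ka1, a kinase activated by ERK, had 20 and 16 UMIs and stood at 124-fold (86.8 to 172). Rapgef3, an exchange factor switched on by cyclic AMP, had 13 and 8 and stood at 49.2-fold (30.5 to 75.2), but in members that needed Musk its interval held 1. Epb41l4a, a FERM domain protein gene, had 28 and 71 and stood at 62.8-fold (51.1 to 76.5).

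**Figure D3:**
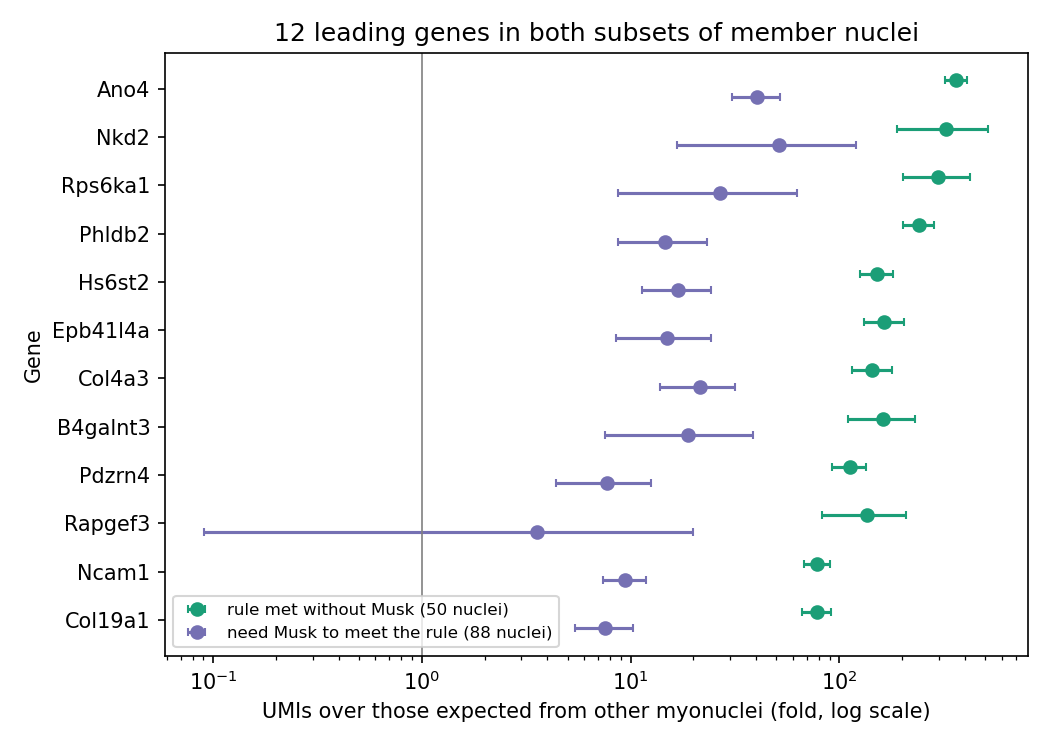
Observed over expected UMIs (fold, log axis) of the 12 leading genes in the 50 members that met the rule without Musk (green) and the 88 that needed it (purple), with exact 95% Poisson intervals of the observed sums; the grey line is no difference. Green points lie to the right of purple ones for every gene, with Ano4 at 364-fold, and for Rapgef3 the purple interval crosses the line.

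The regulators and signalling genes among the 10 junction-enriched genes were uneven. Of the 10, 7 had at least 20 UMIs observed or expected and so could be read. These 7 were called higher, but they passed the minimum through the members' own UMIs. Prkar1a, a regulatory subunit of protein kinase A, had 75 UMIs in 17 WT members and 124 in 35 knockout members and stood at 20.9-fold (18.1 to 24.0). Vav3, an exchange factor for small GTPases, stood at 18.4-fold (15.4 to 22.0), Lrfn5, a synaptic adhesion gene, at 16.5-fold (11.6 to 22.9), and Gramd1b, a cholesterol carrier, at 7.92-fold (6.75 to 9.23). Etv4, the close relative of Etv5, had 4 and 15 UMIs where 0.229 were expected, too few for a call. The GABP subunits did not share this pattern. Gabpa had 1 and 8 UMIs with 11.6 expected, or 0.776-fold (0.355 to 1.47), and Gabpb1 had 3 and 9 with 9.79 expected, or 1.23-fold (0.634 to 2.14).

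Receptor clustering genes other than Musk stood nearer to the level of other myonuclei. Lrp4, the agrin receptor, had 4 and 38 UMIs and stood at 2.64-fold (1.90 to 3.57). Dok7, the adaptor that activates MuSK, had 2 and 14 and stood at 1.37-fold (0.783 to 2.23), and Rapsn, which encodes rapsyn, had 1 and 5 and stood at 0.729-fold (0.268 to 1.59). Agrn stood at 1.06-fold (0.457 to 2.09) from 2 and 6 UMIs. Erbb4, a neuregulin receptor, had 23 UMIs in 9 WT members and 42 in 3 knockout members, 29 of these in 1 nucleus, and stood at 2.19-fold (1.69 to 2.79), but it was called where the rule was met without Musk, at 6.54-fold (4.91 to 8.53). Crk, which Dok7 recruits, stood at 1.23-fold (0.946 to 1.57). Of the 10 genes of this list 3 could be read, and 0 were called in either direction. Over all genes 2.09% were called higher and 0.0642% lower, shares at which no call among 3 says nothing of these genes. Crkl had 6 and 10 UMIs, Nrg1 1 and 7, Erbb3 0 and 1, and Erbb2 0 in both. Of the 47 WT and 179 knockout UMIs of the list, 24 and 82 lay in nuclei that met the rule without Musk.

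The receptor's remaining subunits were sparse. Chrnb1 had 8 and 19 UMIs and stood at 2.63-fold (1.73 to 3.83), below the size for a call. Chrnd had 1 and 3 UMIs, and Chrng, the fetal subunit, 0 in both libraries. Of the 9 WT and 22 knockout UMIs of these subunits, 9 and 11 lay in nuclei that met the rule without Musk. Those nuclei held 32288 of 69696 member UMIs of all genes in WT and 67416 of 335051 in the knockout. In 44 and 94 nuclei a count of 0, taken as 3 UMIs of each total, allows up to 43.0 CPM in the WT library and 8.95 CPM in the other.

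Of 12 genes of the synaptic basal lamina and adhesion, 6 could be read and 4 were called higher, against 2.09% of all genes. These 4 too passed the minimum through the members' own UMIs, so the count is no measure of the list. They were Col4a3 and Ncam1, given above, and a pair of transmembrane collagens. Col13a1, a collagen needed for junction maturation, had 16 and 33 UMIs and stood at 11.7-fold (8.66 to 15.5). Col25a1 had 20 UMIs in 4 WT members and 20 in 1 knockout nucleus, and stood at 18.9-fold (13.5 to 25.8). Lama2, the laminin chain of the whole fibre surface, had 84 and 525 UMIs at 2.11-fold (1.95 to 2.29), and in nuclei that met the rule without Musk it was called at 4.36-fold (3.86 to 4.92). Col4a5 stood at 3.01-fold (1.91 to 4.51) from 4 and 19 UMIs. Lamb2, the laminin chain known for the synaptic cleft, had 4 and 9 UMIs at 1.52-fold (0.810 to 2.60). Col4a4 had 2 and 12 UMIs, Lama4 0 and 10, Lama5 1 and 7, Col4a6 1 and 0, and Nid2 1 in each.

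Utrophin and dystrophin went apart. Utrn, whose protein lines the crests of the junctional membrane, had 60 UMIs in 23 WT members and 150 in 40 knockout members. It stood at 8.01-fold (6.96 to 9.17) in all members and at 20.7-fold (17.4 to 24.5) where the rule was met without Musk. Dmd, whose protein supports the whole fibre membrane, had 848 and 7122 UMIs and stood at 0.890-fold (0.870 to 0.910) and 0.624-fold (0.590 to 0.659). Sntb2, the syntrophin that partners utrophin, was called at 5.23-fold (3.55 to 7.42) from 7 and 24 UMIs, 11 of them in 1 knockout nucleus. Dag1 stood at 0.811-fold (0.682 to 0.958) and Dtna at 1.34-fold (1.20 to 1.49). Of the 12 genes 9 could be read, and the 2 called higher, against 2.09% of all genes, were Utrn and Sntb2. Sntb2 passed the minimum through the members' own UMIs, so the count is no measure of the list. Utrn and Sntb2 were read in fibro-adipogenic nuclei too. Utrn stood there at 452 CPM in WT and 1123 in the knockout, beside 861 and 448 in members. Sntb2 stood at 159 and 398, beside 100.4 and 71.6.

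Anchoring and membrane channel genes that could be read had median log2 ratios to other myonuclei of 0.24 and -0.17. Among 8 cytoskeletal and nuclear anchoring genes 7 could be read and only Phldb2 was called, against 2.09% of all genes. Phldb2 passed the minimum through the members' own UMIs, so the count is no measure of the list. Where the rule was met without Musk, 4 of these genes could be read, and the intervals of 3 lay above 1. Syne1, which tethers nuclei at the junction, stood at 1.37-fold (1.16 to 1.60). Of 7 excitability genes, 4 could be read and 0 were called. With 2.09% of all genes called higher and 0.0642% lower, no call among 4 says nothing of these genes. Scn4a, the muscle sodium channel that is dense at the junction, stood at 1.25-fold (0.967 to 1.60) from 22 and 43 UMIs in all members and at 2.25-fold (1.52 to 3.21) where the rule was met without Musk.

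Among genes that denervated muscle turns on, Ncam1 alone was called, against 2.09% of all genes. Ncam1 passed the minimum through the members' own UMIs, so the count is no measure of the list. Myog, Gadd45a, Myh3, Myh8 and Chrng had 0 UMIs in the members of both libraries. Runx1 had 3 and 39 UMIs at 1.69-fold (1.22 to 2.29). The ubiquitin ligase genes of muscle atrophy stood at 0.810-fold for Fbxo32 (0.719 to 0.908) and 0.756-fold for Trim63 (0.661 to 0.860). Of the 13 genes 6 could be read.

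The only named gene called lower was Kcnab1, which encodes an auxiliary subunit of potassium channels. It had 3 UMIs in WT members, all in 1 nucleus, and 5 in knockout members where 32.4 were expected, or 0.247-fold (0.107 to 0.487). Where the rule was met without Musk it had 0 and 2 UMIs with 10.6 expected, under the minimum for a call. In myotendinous junction nuclei it stood at 51.4 CPM in WT from 2 UMIs and 76.1 in the knockout from 14. Members stood at 43.0 and 14.9 CPM, and other myonuclei at 223 and 50.3. The other lower call was a predicted gene model.

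Transcripts of the pan-myonuclear genes were present in members, at a lower summed level than in other myonuclei. The 12 pan-myonuclear genes stood at 0.721 times their level in other myonuclei in WT members (0.700 to 0.741) and at 0.937 times in knockout members (0.924 to 0.950). Where the rule was met without Musk the ratios were 0.786 (0.755 to 0.818) and 0.767 (0.741 to 0.792). Other myonuclei were chosen by their UMIs of these same 12 genes, and members were not. The ratios are therefore a description, and the part of that choice in them was not tested. Most of the summed UMIs in members of both libraries were from Ttn, so the sum says little of the other genes. Of the UMIs of 4 adult myosin heavy chain genes, Myh4, the fast glycolytic form, made up 92.3% (84.8 to 96.9) in WT nuclei and 90.8% (84.2 to 95.3) in knockout nuclei that met the rule without Musk. In other myonuclei its share was 71.8% (71.3 to 72.2) and 80.8% (80.4 to 81.2). Myh1, an intermediate fast form, had 5 and 1 UMIs in those members and was called lower at 0.133-fold (0.0489 to 0.290). Over all members Myh4 made up 81.3% (74.9 to 86.7) and 82.4% (79.4 to 85.1), and Myh7, the slow form, had 18 UMIs in 2 knockout nuclei, 15 of them in 1.

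Knockout and WT members were then compared, as the ratio of CPM with 0.5 UMI added to each sum. Of 2952 genes, 21 were called higher in the knockout (0.711%) and 32 lower (1.08%), by an interval beyond 2-fold and at least 20 UMIs. In nuclei that met the rule without Musk, 16 of 899 genes were called higher (1.78%) and 2 lower (0.222%). Of the 21 higher calls 8 were also made there, and of the 32 lower calls 1. In other myonuclei 239 of 16449 genes were called higher (1.45%) and 2988 lower (18.2%), with far more UMIs per gene.

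Junction transcripts were lower in knockout members as a whole, and this depended on which members were counted. The 10 junction-enriched genes had 419 UMIs in WT members and 765 in knockout members, 6012 and 2283 CPM. Their log2 ratio was -1.40 (-1.57 to -1.22). It was -0.29 (-0.48 to -0.09) in nuclei that met the rule without Musk, and 0.12 (-0.10 to 0.35) among the 13 WT and 19 knockout nuclei of these with 1000 to 4000 UMIs, whose median depths were 2093 and 1917. In Y-marked nuclei that met the rule without Musk, 8 in WT and 16 in the knockout, it was -0.78 (-1.08 to -0.47). In members that needed Musk it was -1.62 (-2.01 to -1.21), and in other myonuclei -0.47 (-0.56 to -0.38). Over all nuclei of a library, with no selection, it was -0.10 (-0.17 to -0.03). That last set mixes cell types in unlike shares. Other myonuclei were 9764 of 10274 WT nuclei and 5781 of 7766 knockout nuclei, and fibro-adipogenic nuclei numbered 27 and 207. The part of this mix in the ratio was not tested. The sum over the 10 genes was lower in the knockout in each of the sets above except the one matched for depth, where the interval held 0.

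Single junction genes followed the same course. Ano4 stood at -1.68 on the log2 scale in knockout over WT members (-2.00 to -1.35) and at -0.46 (-0.81 to -0.09) where the rule was met without Musk. Prkar1a stood at -1.54 (-1.97 to -1.11) and -0.75 (-1.22 to -0.27), and Col4a3 at -2.05 (-2.62 to -1.48) and -0.89 (-1.54 to -0.23). Pdzrn4 stood at -1.36 (-1.89 to -0.79) in all members and at 0.10 (-0.48 to 0.73) in that subset. Ncam1 stood at -0.81 (-1.20 to -0.39) and 0.18 (-0.26 to 0.66), and Utrn at -0.95 (-1.38 to -0.49) and 0.12 (-0.41 to 0.69). The fall was not particular to members. In other myonuclei the ratio was -2.36 for Ano4, -2.23 for Col4a3 and -2.17 for Pdzrn4, but -0.10 for Ncam1. For the 7 junction-enriched genes that could be read, the median log2 ratio was -1.47 in members and -2.10 in other myonuclei. Of these 7, 3 were called lower in all members, Ano4, Prkar1a and Vav3, against 1.08% of all genes. Where the rule was met without Musk 0 of 7 were called lower, against 0.222% of all genes, a share at which no call among 7 says nothing of these genes. Among the rule genes, which chose the members, Chrne stood at -1.86 (-2.61 to -1.07) and -0.91 (-1.90 to 0.09), Musk at -0.69 (-1.04 to -0.31) and -0.09 (-0.71 to 0.57), and Ache at 0.08 (-0.81 to 1.21) and 0.36 (-0.74 to 1.70).

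**Figure D4:**
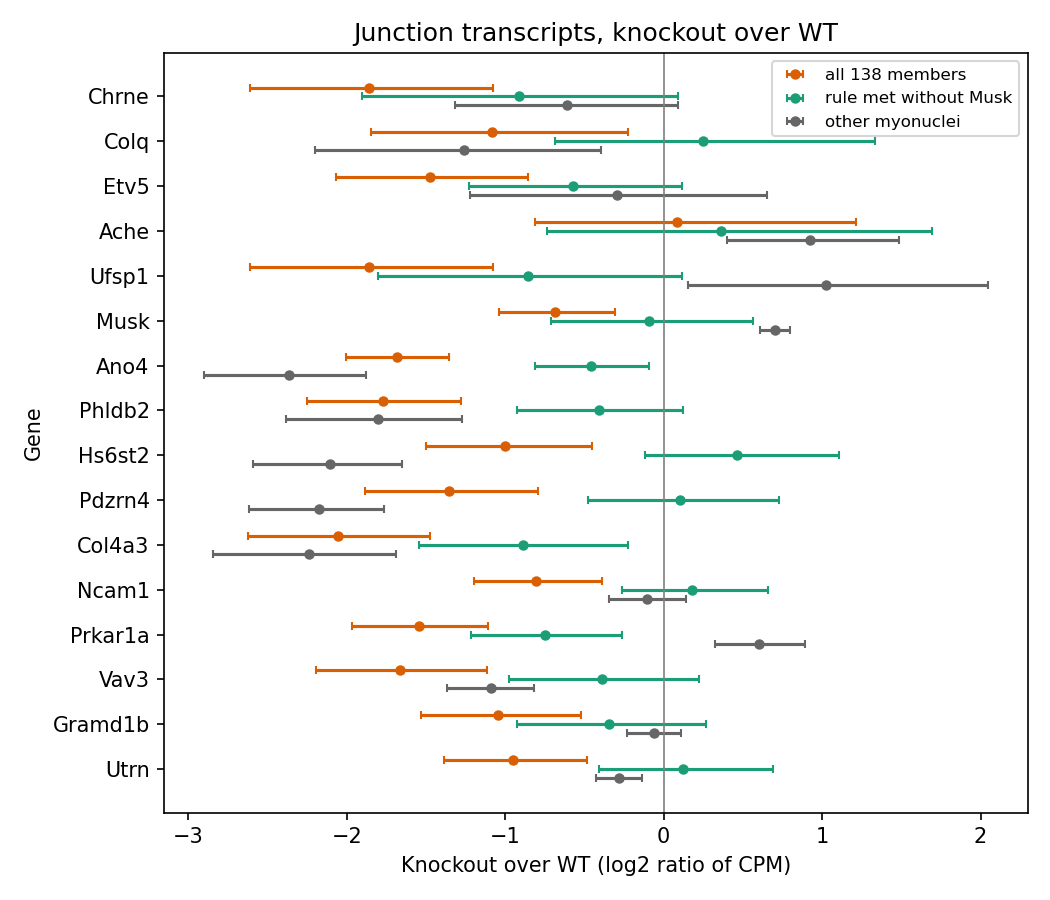
Log2 ratio of CPM, knockout over WT, of 16 junction transcripts in all 138 members (orange), in members that met the rule without Musk (green) and in other myonuclei (grey), with exact conditional binomial 95% intervals; the grey line is no difference. Orange points lie left of the line for 15 of 16 genes, from -2.05 for Col4a3 to 0.08 for Ache, while green points lie on both sides of it. Chrne, Colq, Etv5, Ache, Ufsp1 and Musk are rule genes, which chose the members, so their orange and green points are a description only.

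Among the genes named as lower in knockout members, Ryr3 and Tafa4 were also called higher in members than in other myonuclei. Ryr3, a calcium release channel of the sarcoplasmic reticulum, had 46 UMIs in 14 WT members and 36 in 12 knockout members, 660.0 and 107 CPM, with a log2 ratio of -2.61 (-3.29 to -1.96). It stood at 21.7-fold over other myonuclei (17.3 to 27.0). Where the rule was met without Musk its ratio between genotypes was -1.59 (-2.31 to -0.91), and in other myonuclei -2.13. Tafa4, a secreted chemokine-like factor gene, had 33 UMIs in 10 WT members and 16 in 4 knockout members, 12 of these in 1 nucleus. Its ratio was -3.29 (-4.27 to -2.41), and -1.89 (-2.93 to -0.95) without the members that needed Musk. Both genes thus kept their direction in the subset, without passing the 2-fold call there, and both were lower in knockout nuclei outside the junction as well. Among nuclei of the subset with 1000 to 4000 UMIs the ratios were smaller, at -0.82 for Ryr3 and -0.63 for Tafa4.

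Sox2ot, Cst3, Magi2, Fkbp5 and Hrc were also named as lower. Sox2ot, a long noncoding RNA, had 15 and 5 UMIs, the latter in 1 nucleus, and 0 in members that met the rule without Musk. Hrc, a calcium-binding protein of the sarcoplasmic reticulum, had 14 UMIs in 12 WT members and 9 in 7 knockout members, with a ratio of -2.88 (-4.29 to -1.59). Fkbp5, a glucocorticoid-responsive chaperone gene, had 19 and 12 UMIs and a ratio of -2.91 (-4.10 to -1.81). Cst3 had 15 and 7 and Magi2 15 and 8. In other myonuclei these 5 genes were lower in the knockout, by log2 ratios from -2.95 for Sox2ot to -1.98 for Cst3.

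The 8 genes named as higher in knockout members were also higher in other knockout myonuclei. Pcdh7, a protocadherin, had 1 UMI in WT members and 232 in 37 knockout members, a log2 ratio of 5.01 (3.10 to 10.90), with 2.67 in other myonuclei. Pde10a, a cyclic nucleotide phosphodiesterase, had 5 and 253 UMIs and a ratio of 3.26 (2.15 to 5.03), with 2.51 in other myonuclei. Cadm1, a cell adhesion molecule, had 10 and 318 and a ratio of 2.66 (1.83 to 3.80), with 1.13. These 3 were called in the nuclei that met the rule without Musk too, at 4.09, 3.00 and 2.92. Whether any of these ratios differed between members and other myonuclei was not tested.

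The remaining 5 named genes were not called where the rule was met without Musk, where Sorcs1, Glis3, Prune2 and Sgms2 were under the minimum of 20 UMIs. Eya4, a transcriptional co-activator of muscle, had 29 and 602 UMIs and a ratio of 2.09 (1.57 to 2.70), and 1.80 (0.91 to 2.98) in that subset. Sorcs1, a sorting receptor, had 3 and 194, of which 64 lay in 1 knockout nucleus. Glis3, a zinc finger factor, had 1 and 78, of which 21 lay in 1 nucleus. Prune2 had 0 and 98 UMIs, or 6.80-fold higher with WT set to 3 UMIs. The lower end of its log2 interval was 2.44. Sgms2, a sphingomyelin synthase, had 0 and 64, or 4.44-fold higher on the same setting, with a lower end of 1.81.

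Metabolic and response genes were read from lists drawn from the wider muscle. Of 12 fatty acid genes 7 could be read and 0 were called. With 0.711% of all genes called higher and 1.08% lower, no call among 7 says nothing of these genes. Their median log2 ratio was -0.84 in members and -0.57 in other myonuclei, beside 0.06 and 0.24 over all genes read in both. Of 12 genes that had stood out in the knockout library as a whole, 6 could be read and 2 were called higher, against 0.711% of all genes, Sgms2 and Igfn1, a sarcomere-associated gene with 1 and 65 UMIs. Irs1, the insulin receptor substrate, had 30 and 367 UMIs and a ratio of 1.33 (0.81 to 1.94), and 1.78 (0.89 to 2.96) where the rule was met without Musk. That list was chosen on these libraries and is no independent evidence of a direction. Of 9 caveola genes, Pacsin3 alone could be read, at 0.06 (-0.67 to 0.93), and Cav3, the muscle caveolin, had 1 and 8 UMIs.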

How the data were processed

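The authors deposited unnormalised UMI counts for each gene in each barcode. Per the file headers these come from Cell Ranger 6.0.0, and STAR, Seurat 4.1.1, mm10 and GRCm38 are named in the submitters' processing notes. The sources used here do not say whether intronic reads or strand entered the counts. Of the 36 rule genes and genes named by rank, 14 overlap another gene on their own strand and 13 on the opposite strand only in GENCODE M21 (GRCm38), so the source of some of their UMIs is uncertain.

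Counts were read with Python 3.11.15, pandas 2.3.3, numpy 2.4.6 and scipy 1.17.1. Nuclei with at least 200 genes were kept. Doublets were not called or removed, and markers of 10 other cell types were counted instead. At least 2 UMIs of such markers were found in 8 WT and 34 knockout members, mostly Abcc9. Other myonuclei were non-members with at least 10 UMIs over 12 pan-myonuclear genes and other-type marker UMIs of at most 0.1 times those. Pooled ratios weight the libraries by member depth and carry exact Poisson intervals. Ratios between libraries add 0.5 UMI and carry exact conditional binomial intervals, and shares carry Clopper-Pearson intervals. The code was checked on simulated data. Total UMIs per nucleus ran from 422 to 5161 in WT members and from 579 to 13234 in knockout members.

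Genes named by rank were, among called genes, the 12 highest and up to 8 lowest in members, and the 8 highest and 8 lowest between genotypes, by whichever end of the interval was closest to no difference. The ranking left out rule genes, predicted models, sex-linked marker genes, and genes of haemoglobin, ribosomal proteins and the mitochondrial genome. Values of some genes in the lists and rankings are not reported here. The members, gene lists and markers were chosen with earlier results of these data known. Alternatives changed the member rule, the comparison nuclei, the depth and gene minimum, the UMI minimum and the UMIs added. The splits by Musk, by depth within them and by shared barcodes were added after the data were seen.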

Additional observations from a re-analysis of the deposited data

Results flagged for a closer look

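Pcdh7 stood on opposite sides of other myonuclei in the 2 libraries. WT members held 1 UMI, a log2 ratio of -2.08 to other WT myonuclei (-7.97 to -0.19), and knockout members held 232, a log2 ratio of 0.26 to other knockout myonuclei (0.06 to 0.45). The WT side rests on that 1 UMI, and the difference between the genotypes was not tested.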

How the results depend on the processing

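The share of members moved with the rule and the depth. In WT it was 0.110% with nuclei thinned to 500 UMIs, 0.871% among nuclei with at least 500 genes, 0.273% with at least 4 rule UMIs, 0.234% with at least 3 rule genes, 0.214% without Musk and 0.662% among Y-marked nuclei. In the knockout it was 0.193%, 0.785%, 0.425%, 0.361% and 1.93% under the first and the last 4 of these, and 0.966% without Chrna1 and Etv5. The knockout share was the higher one under each of these. Against other myonuclei, 25 genes were called higher in members that needed Musk. Genes called lower numbered 15 with at least 3 rule genes, 16 without Musk, 4 without Chrna1 and Etv5, 50 against all non-member nuclei, 1 with at least 500 genes, 1 in members that needed Musk and 0 without members holding 2 UMIs of another cell type. The summed log2 ratio of the 10 junction-enriched genes was 5.60 with at least 3 rule genes, 5.70 without Musk, 4.73 without members holding 2 UMIs of another cell type, 4.02 in members that met the myonuclear rule, 4.01 with at least 500 genes, 3.78 against all non-member nuclei and 2.31 in members that needed Musk. Between genotypes, genes called higher numbered 13 with at least 3 rule genes and 10 without Musk at 1000 to 4000 UMIs. Genes called lower numbered 1, 2, 2, 12 and 18 with at least 3 rule genes, without Musk, without Musk at that depth, without members holding 2 UMIs of another cell type and with a minimum of 40 UMIs. The summed log2 ratio of the junction-enriched genes was -0.30 with at least 3 rule genes, -0.94 without members holding 2 UMIs of another cell type, -0.29 without Musk and 0.12 without Musk at 1000 to 4000 UMIs, where it changed sign. Fewer nuclei and UMIs entered the smaller sets, and the cause was otherwise not tested. For single genes named by rank, 0 of 117 values against other myonuclei and 0 of 176 between genotypes changed sign, and 57 and 32 moved by more than their interval. No paired analysis was possible because the genotypes share fewer than 2 replicate numbers. Depth limits every count: a gene with 0 UMIs in WT members may stand at up to 43.0 CPM.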

Other observations

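The genes below were chosen after their values were seen. Calcrl, a subunit gene of the receptor for calcitonin gene-related peptide, which motor nerve endings release, had 20 UMIs in WT members and 101 in knockout members and stood at 9.64-fold over other myonuclei, and at 30.7-fold where the rule was met without Musk. Cacna2d3, an auxiliary calcium channel subunit gene, had 28 and 44 UMIs and stood at 14.2-fold and 40.9-fold in the same sets. Both genes were among those called higher in members.

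Cd44, a hyaluronan receptor gene, and Emp1, an epithelial membrane protein gene, were also called higher in members, at 8.03-fold and 11.3-fold over other myonuclei, but through knockout nuclei alone. Cd44 had 0 UMIs in WT members and 42 in 7 knockout members, and Emp1 had 0 and 25 in 6 knockout members. Neither gene had a UMI in members that met the rule without Musk. Ebf1, a transcription factor of fat and stromal cells, had 5 and 107 UMIs in members and was among the genes called higher in the knockout where the rule was met without Musk. In that set adipocyte markers stood at 564 CPM in the knockout, with 2 nuclei holding at least 2 such UMIs, and at 0 in WT. The part of these nuclei in the Ebf1 value was not tested.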
